A study of Mus musculus with 2 samples.

Results

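The genes described here form the interferon-response module of mouse bone, a list of 41 genes fixed by name, and 40 of them were among the 28380 genes of the tables, while Mx2 was not analysed here. They were grouped by role into 17 antiviral effectors, 2 RNA sensors, 4 transcription factors, 9 interferon-inducible GTPases, 2 chemokines and 6 genes of antigen presentation. Type I interferons bind a receptor that activates JAK1 and TYK2, and STAT2 and IRF9 carry the signal to interferon-stimulated response elements (ISRE). Interferon-gamma uses another receptor and acts through gamma-activated sites (GAS), and it is the main inducer of Irf1, the chemokines Cxcl9 and Cxcl10 and many GTPases. Cells of most tissues hold a low level of many of these transcripts without infection, and endothelial cells (ECs) respond to both kinds of interferon.

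The levels were measured by single-cell RNA sequencing of femur and tibia cells, depleted of haematopoietic cells, of C57BL/6 mice at postnatal day 30. One library was made from Control mice, labelled Dach1OE +/f with no Cre in the label, and 1 from Dach1OE mice, labelled Apj CreERT2 - Dach1OE +/f, and both groups carried the Dach1OE allele and received tamoxifen. Apj, also called Aplnr, drives the inducible Cre in capillary ECs, and the transgene encodes the transcription factor DACH1. Each library pooled 2 mice of both sexes and neither group had a second library, so every difference below is between 2 libraries, no p-value was computed, and all intervals (95%) cover counting error only. A difference between single mice cannot be told apart from one between genotypes here.

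The Control table listed 28720 cells with 143986818 unique molecular identifiers (UMIs) and that of Dach1OE 32028 cells with 166999989. Of these, 26466 and 29317 cells passed the filters, and the libraries shared 879 cell barcodes, 3.32% and 2.998% of the cells. Cells took a class from lists of 10 markers, which gave 9360 and 9427 ECs, 5484 and 4372 stromal cells, 4513 and 6369 chondrocytes and 2942 and 3096 haematopoietic cells in Control and Dach1OE. The markers of each of these classes led in its own cells, and Ahsp was the 1 marker without UMIs. In ECs, Dach1 was at 5.36 CPM in Control and 193 in Dach1OE, a log2 ratio of 5.17 (4.96 to 5.40), against 3.54 and 5.09 in stromal cells. A level (CPM) is the summed UMIs of a gene over all UMIs of the class, scaled to 1000000, a log2 ratio is Dach1OE over Control, and a gene counted as lower or higher where it was at least 1.5-fold apart with at least 20 UMIs over both libraries.

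Promoters of members were searched for the letters of the ISRE and GAS cores. The RefSeq promoter table (GRCm38.p6) held 33 of the 40 members in 38 windows, and Mx1, Usp18, Zbp1, Parp14, Gbp4, Gbp6 and Iigp1 were not in it. An ISRE-type core, taken as GAAA followed after any 2 bases by a second GAAA on either strand, was in 17 of the 38 windows, of 17 genes, against 3.44% of all 32851 windows. The letters TTCNNNGAA, a GAS-type core that reads alike on both strands, were in 8 of the 38 windows, of 8 genes, against 8.30% of all windows. A match is a description of letters and not a mapped binding site. Windows of 7 genes that the results turn on are printed 5′ to 3′ on the gene's strand with matches in capitals. Ifit1 (chr19:34640639-34640938, plus strand) and Isg15 (chr4:156200769-156201068, minus) stand for antiviral effectors with log2 ratios above 0 in ECs. Rsad2 (chr12:26456403-26456702, minus) and Cxcl10 (chr5:92348840-92349139, minus) stand for members lower in ECs, and Ifi47 (chr11:49076337-49076636, plus) is the GTPase furthest apart in ECs. Irf1 (chr11:53769764-53770063, plus) stands for a GAS-type core, and B2m (chr2:122147437-122147736, plus) for antigen presentation.
Ifit1: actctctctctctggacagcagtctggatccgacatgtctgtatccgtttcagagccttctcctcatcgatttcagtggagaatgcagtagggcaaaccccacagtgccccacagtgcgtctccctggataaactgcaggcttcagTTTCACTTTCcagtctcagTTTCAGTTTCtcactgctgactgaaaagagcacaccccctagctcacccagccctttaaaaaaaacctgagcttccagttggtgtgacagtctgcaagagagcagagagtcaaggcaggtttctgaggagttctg
Isg15: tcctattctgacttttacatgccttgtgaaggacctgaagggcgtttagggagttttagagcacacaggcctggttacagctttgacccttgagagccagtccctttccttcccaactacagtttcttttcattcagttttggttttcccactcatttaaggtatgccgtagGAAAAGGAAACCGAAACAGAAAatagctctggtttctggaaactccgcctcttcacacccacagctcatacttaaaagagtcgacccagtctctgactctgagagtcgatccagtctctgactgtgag
Rsad2: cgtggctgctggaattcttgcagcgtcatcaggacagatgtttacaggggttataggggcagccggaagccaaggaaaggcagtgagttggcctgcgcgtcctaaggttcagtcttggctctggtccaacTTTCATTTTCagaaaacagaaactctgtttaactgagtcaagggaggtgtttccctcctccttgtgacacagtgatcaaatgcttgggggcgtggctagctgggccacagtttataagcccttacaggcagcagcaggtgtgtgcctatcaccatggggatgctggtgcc
Cxcl10: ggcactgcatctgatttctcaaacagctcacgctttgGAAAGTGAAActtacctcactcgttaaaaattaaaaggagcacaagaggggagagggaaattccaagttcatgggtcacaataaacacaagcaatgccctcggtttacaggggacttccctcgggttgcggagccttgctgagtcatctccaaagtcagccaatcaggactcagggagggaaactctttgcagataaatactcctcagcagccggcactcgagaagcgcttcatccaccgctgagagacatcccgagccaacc
Ifi47: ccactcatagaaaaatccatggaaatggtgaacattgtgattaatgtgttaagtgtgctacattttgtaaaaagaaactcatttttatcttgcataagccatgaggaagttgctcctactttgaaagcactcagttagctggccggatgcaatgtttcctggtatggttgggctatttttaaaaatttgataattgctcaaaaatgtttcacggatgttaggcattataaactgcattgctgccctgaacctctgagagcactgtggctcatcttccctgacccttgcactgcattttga
Irf1: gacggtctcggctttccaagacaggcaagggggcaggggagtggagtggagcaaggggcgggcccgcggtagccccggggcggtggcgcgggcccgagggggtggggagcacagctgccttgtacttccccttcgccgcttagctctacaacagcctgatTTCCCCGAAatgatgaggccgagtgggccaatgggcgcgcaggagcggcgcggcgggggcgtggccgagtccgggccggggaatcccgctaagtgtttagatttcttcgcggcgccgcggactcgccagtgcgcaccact
B2m: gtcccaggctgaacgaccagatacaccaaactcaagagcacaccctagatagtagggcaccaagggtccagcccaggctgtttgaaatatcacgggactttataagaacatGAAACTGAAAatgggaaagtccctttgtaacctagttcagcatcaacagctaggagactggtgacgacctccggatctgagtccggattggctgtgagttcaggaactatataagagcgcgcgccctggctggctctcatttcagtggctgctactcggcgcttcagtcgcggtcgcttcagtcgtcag
In Ifit1, cores lay on the opposite strand at -104 to -95 and -85 to -76 from the annotated start. Isg15 held 3 overlapping cores between -78 and -57, Rsad2 1 on the opposite strand at -120 to -111, Cxcl10 1 at -213 to -204 and B2m 1 at -139 to -130. Irf1 held a GAS-type core at -90 to -82 and no ISRE-type core in this window. The Ifi47 window held neither, which says only that these letters are not in it. Of the other GTPases, Igtp, Irgm1, Gbp2, Gbp3 and Gbp7 each had a window with an ISRE-type core, and Iigp1, Gbp4 and Gbp6 had no window.

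Of the 40 members, 32 had their highest level of the 4 classes in ECs of both libraries, against 22.7% of all genes. Haematopoietic cells were highest in both for Ifit2, Oas1a, a synthetase that activates RNase L, and Igtp, against 30.5% of all genes. Stromal cells and chondrocytes were highest for none, against 13.9% and 13.1%. The remaining 5, Ifit1, Mx1, Zbp1, Ifi47 and H2-D1, were highest in a different class in each library, against 19.9% of all genes. Ifi47 was at 227 CPM in ECs and 111 in haematopoietic cells of Control, and at 87.9 and 95.2 in Dach1OE, so its order turned round. H2-D1, a class I heavy chain, was at 1432 in ECs and 1595 in stromal cells of Control and at 1519 and 825 in Dach1OE. Mx1, an antiviral dynamin-like GTPase, had 7 and 10 UMIs in ECs and at most 6 in any other of the 4 classes. These were too few for its levels to be compared.

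**Figure D1:**
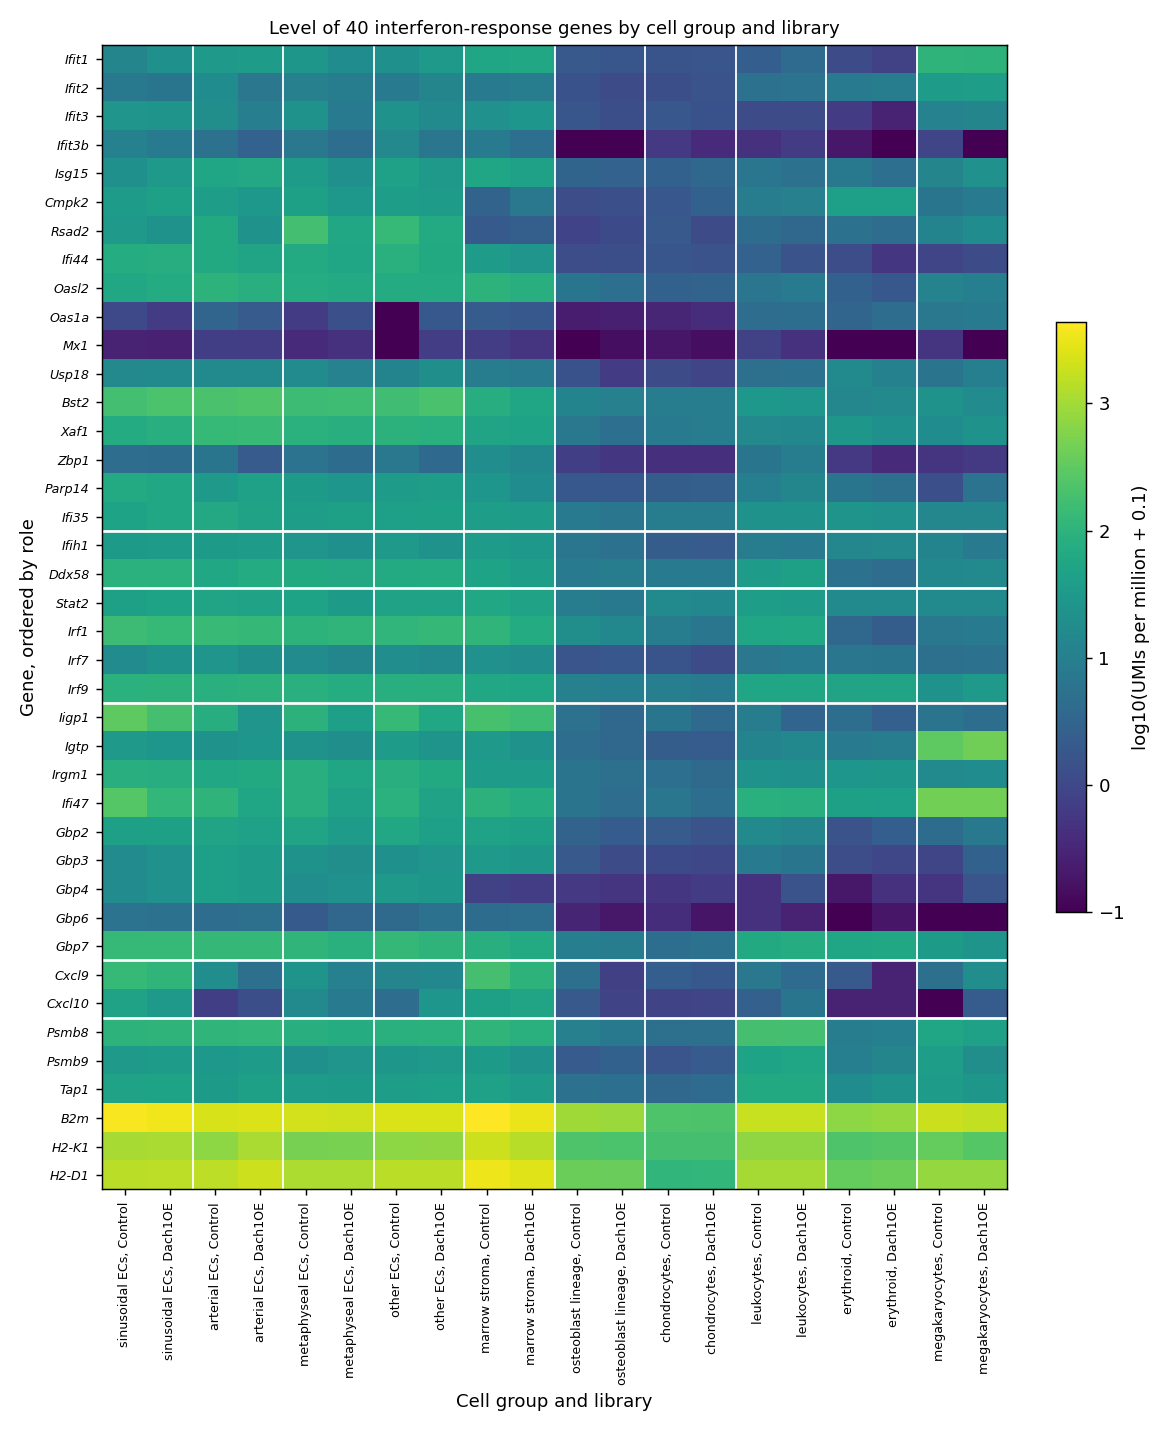
Heatmap of the level of each member (rows, ordered by role) in 10 cell groups of each library (columns), as log10 of CPM plus 0.1. Endothelial subsets and marrow and metaphyseal stroma held high levels of most members, osteoblast-lineage cells, chondrocytes and erythroid cells low ones, and megakaryocyte-lineage cells high levels of Ifit1, Igtp and Ifi47.

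With the classes split by their markers into 10 cell groups, 21 of the 40 members had their highest level in an endothelial subset of both libraries, against 20.2% of all genes. In this split marrow and metaphyseal stroma of Control, pooled above with the low osteoblast-lineage cells, lay above sinusoidal ECs for Ifit1 (56.0 against 13.0 CPM), Cxcl9 (190 against 129) and B2m (4367 against 3972). In 1 and the same subset, 7 members were highest in sinusoidal ECs of both libraries, against 4.52% of all genes. These were Parp14, the RNA sensor Ddx58 (RIG-I), Irf1, Irgm1, Gbp6, Gbp7 and Iigp1, a GTPase that attacks vacuoles of intracellular parasites. Another 5 were highest in arterial ECs, against 4.02% of all genes, and these were Isg15, Bst2, Xaf1, Gbp3 and Gbp4. Gbp4 overlaps Gbp8 and Gbp9 on the same strand, so reads could be split among them by the counting. Megakaryocyte-lineage cells were highest for 5 (6.66% of all genes), leukocytes for Psmb8, Psmb9 and Tap1, which make and carry peptides for class I molecules (10.6%), and marrow and metaphyseal stroma for Zbp1, H2-K1 and H2-D1 (9.26%). The other 17 had another highest group in each library, against 35.8% of all genes.

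Within the endothelium some members differed by vessel type. Arterial against sinusoidal ECs of the same library, 6 of 39 members were at least 1.5-fold higher in both libraries, against 8.76% of all genes, and 5 at least 1.5-fold lower, against 11.6%. The higher ones were Ifit1, Isg15, Oas1a, Xaf1, Gbp3 and Gbp4, and the lower ones Ifit3b, Iigp1, Ifi47, Cxcl9 and Cxcl10. In Control the intervals of Oas1a (1.73, -0.01 to 3.15) and Ifit3b (-0.92, -2.07 to 0.02) included 0, from 5 and 9 arterial UMIs. Arterial Cxcl10 rested on 1 UMI in Control and 6 in Dach1OE. Isg15, a ubiquitin-like modifier, was 1.37 log2 units (1.03 to 1.69) higher in arterial ECs of Control and 1.06 (0.86 to 1.26) in Dach1OE. Cxcl9, which draws activated T cells, was at -2.79 (-3.36 to -2.27) and -4.42 (-5.05 to -3.85). Antiviral effectors and GTPases were found in both directions, while both chemokines were lower in arterial ECs. The member medians of arterial over sinusoidal ECs were 0.00 in Control and -0.07 in Dach1OE, against -0.04 and -0.08 for all genes.

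In metaphyseal against sinusoidal ECs, 8 of 38 members were lower in both libraries, against 7.85% of all genes, and 1 was higher, against 7.75%. The lower ones were Parp14, Iigp1, Ifi47, Gbp6, Cxcl9, Cxcl10, B2m and H2-K1. Rsad2 (viperin), which makes a chain-terminating nucleotide, was the higher one, by 2.55 log2 units (2.40 to 2.70) in Control and 1.33 (1.12 to 1.54) in Dach1OE.

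The stromal cells split into groups with very different levels. Osteoblast-lineage cells were lower than marrow and metaphyseal stroma for 37 of 37 members in both libraries, against 54.7% of all genes, and higher for none, against 7.92%. The median log2 ratio of the members between these stromal groups was -3.14 in Control and -3.30 in Dach1OE, against -0.77 and -0.81 for all genes. B2m, the class I light chain, was at -2.22 and -1.87, and Iigp1 at -5.14 and -5.45. Ifit3b had no UMI in osteoblast-lineage cells of either library.

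Some members were higher in megakaryocyte-lineage cells than in leukocytes. Between these groups, 8 of 34 members were higher in both libraries, against 13.6% of all genes, and 13 lower, against 37.2%. Ifit1 was at 106 and 101 CPM in megakaryocyte-lineage cells of Control and Dach1OE and at 2.39 and 4.06 in leukocytes. Igtp was at 302 and 426 against 12.3 and 14.5, and Ifi47 at 455 and 451 against 89.6 and 80.2. Ifit2, Ifit3, Isg15, Rsad2 and Oas1a were the others. Igtp overlaps Irgm2 on the same strand, so reads could be split between them by the counting. The transcription factor gene Irf1 was lower in megakaryocyte-lineage cells, at 7.20 and 7.86 against 53.8 and 59.9. These orders held in both libraries, while the megakaryocyte-lineage cells were few, at 452 and 418.

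In ECs, 6 of 39 members with enough UMIs were lower in Dach1OE, against 9.63% of all 16246 genes, and 1 was higher, against 8.69%. The median log2 ratio of the members was -0.03 and that of all genes 0.02. Summed antiviral effectors were at 699 and 725 CPM, a log2 ratio of 0.05, and summed antigen-presentation genes at 6166 and 5598. The summed GTPases were at 816 and 523 and the summed chemokines at 144 and 87.6. Of the antigen-presentation genes, B2m was at 3587 and 2928, and the log2 ratios of the others lay from -0.001 to 0.14. Of the GTPases, Iigp1 and Ifi47 were lower and the others lay within 1.5-fold, with positive log2 ratios for Gbp3 and Gbp4. In the same cells the summed mural markers were at 1325 and 781 CPM, those of chondrocytes at 1037 and 1385, of marrow and metaphyseal stroma at 1028 and 1019 and of leukocytes at 310 and 316, with all 10 of each list seen. The part of these in the differences of ECs was not tested.

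The 2 members furthest apart in ECs were the GTPase genes Ifi47 and Iigp1. Ifi47 (IRG-47; chr11:49076587-49096974 on GRCm38, plus strand) was at 227 CPM in Control and 87.9 in Dach1OE, a log2 ratio of -1.37 (-1.43 to -1.31). Iigp1 was at 261 and 124, a log2 ratio of -1.07 (-1.13 to -1.02). At least 1 UMI of Ifi47 was seen in 44.4% and 21.1% of ECs and of Iigp1 in 42.6% and 22.0%, at median depths of 2840.5 and 2824 UMIs per cell, whereas in chondrocytes of median depths of 10104 and 9569 UMIs the Iigp1 share was 4.30% and 2.47% and the Ifi47 share 4.83% and 3.45%. The share of ECs with a UMI of either gene was thus lower in Dach1OE at nearly the same depth and above that of chondrocytes in both libraries. Ifi47 overlaps Olfr56 on the same strand, and Iigp1 has near-identical relatives such as Gm4951, so reads could be split among them by the counting.

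Both genes were lower in each of the 4 endothelial subsets, the only members for which this was so. In sinusoidal ECs Iigp1 was at 306 and 187 CPM and Ifi47 at 266 and 116. In arterial ECs Iigp1 was at 79.1 and 26.5, and in metaphyseal ECs at 94.5 and 41.1. Across the subsets the log2 ratio was -1.58 to -0.71 for Iigp1 and -1.19 to -0.80 for Ifi47. In cells with Xist and in cells with Y-linked UMIs, which come from different mice if each pool held a female and a male, both were also below 0 in 8 of 8 subsets by sex. For all ECs, Iigp1 was at -0.98 in Xist cells and -1.23 in Y-linked cells, and Ifi47 at -1.22 and -1.56.

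The other members lower in ECs were Cxcl10, Cxcl9, Rsad2 and Ifit3b. Cxcl10 was at 38.7 and 21.9 CPM (log2 ratio -0.82, -0.96 to -0.69) and Cxcl9 at 105 and 65.7 (-0.68, -0.76 to -0.60). Sinusoidal ECs, which held 3306 of the Cxcl9 UMIs of Control, were at 129 and 108 (-0.26, -0.34 to -0.18), within 1.5-fold, and were fewer in Dach1OE, while arterial and metaphyseal ECs were at -1.88 and -1.28 from 30 and 25 and from 90 and 57 UMIs. Cxcl10 in sinusoidal ECs was at 46.8 and 30.6 (-0.61). Cxcl10 rested on few cells, since the 10 ECs with the most UMIs held 30.3% of its UMIs in Control and 56.2% in Dach1OE, against 3.77% and 6.19% for Iigp1. Rsad2 was at 55.5 and 34.9 (-0.67, -0.78 to -0.56) and differed by vessel type, at 182 and 60.5 in metaphyseal ECs, 64.8 and 22.9 in arterial ECs and 31.2 and 24.1 in sinusoidal ECs. Ifit3b, which lies next to its near copy Ifit3, was at 10.3 and 6.68. Lower in cells of both sexes were 3 of 38 members, Iigp1, Ifi47 and Cxcl10, against 4.06% of all genes.

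**Figure D2:**
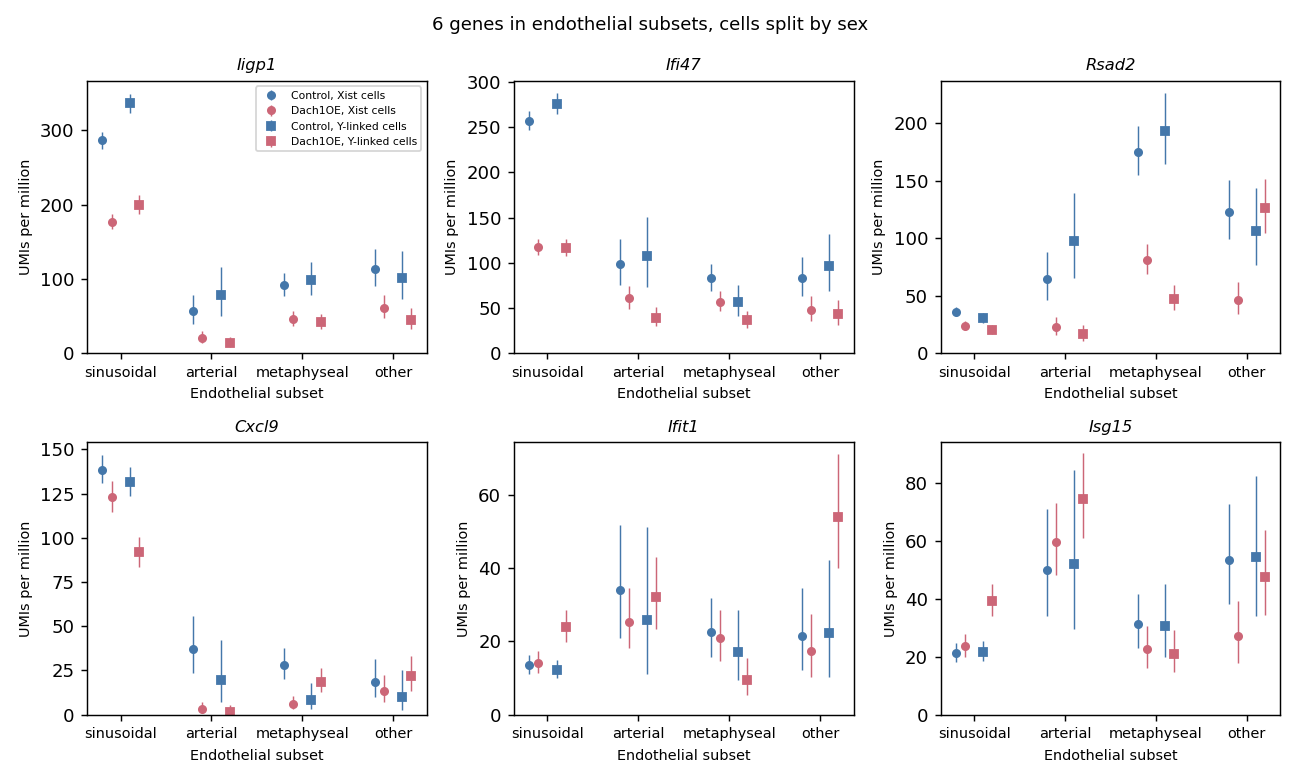
CPM of 6 genes (vertical axes) in the 4 endothelial subsets (horizontal axes) of Control and Dach1OE, with circles for cells with Xist and squares for cells with Y-linked UMIs. Iigp1 and Ifi47 lie lower in Dach1OE in each subset and sex, Rsad2 in 7 of 8, and Ifit1 and Isg15 have no common direction.

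The single member counted as higher in ECs was Ifit1, which binds viral RNA that lacks host caps, at 16.1 and 24.2 CPM (log2 ratio 0.59, 0.43 to 0.75). Isg15 was at 25.9 and 34.4 (0.41), Gbp4 at 19.3 and 25.03 (0.37) and Gbp3 at 19.1 and 23.8 (0.32). The log2 ratio of Ifit1 was 0.07 in Xist cells and 0.92 in Y-linked cells, and that of Isg15 was 0.14 and 0.76. These cells come from different mice if each pool held a female and a male, so sex cannot be told apart from single mice. In metaphyseal ECs both genes went the other way, Ifit1 from 28.7 to 18.0 and Isg15 from 35.1 to 21.2. The other endothelial ratios lay within 1.5-fold, among them the RNA sensors Ifih1 (0.01) and Ddx58 (-0.06), Irf9 (-0.03), Tap1 (0.00) and H2-K1 (0.00).

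The subsets of ECs differed in how many members were lower. In metaphyseal ECs 10 of 38 were lower, against 8.24% of genes, and 1 was higher, against 6.11%, with a member median of -0.27. The lower ones were Ifit1, Ifit3, Ifit3b (26 and 26 UMIs), Isg15, Rsad2, Usp18, Iigp1, Ifi47, Cxcl9 and Cxcl10, and Gbp6 (7 and 18 UMIs) was the higher one. In arterial ECs 8 of 37 were lower (10.5% of genes), namely Ifit2, Ifit3, Ifit3b, Rsad2, Zbp1, Iigp1, Ifi47 and Cxcl9, and H2-K1 was higher at 0.70 (11.3% of genes). Of these, Ifit2 rested on 29 and 33 UMIs, Ifit3b on 9 and 14 and Zbp1 on 10 and 10. Arterial ECs of Control held 1604786 UMIs in all, against 25596473 in sinusoidal ECs. In sinusoidal ECs 4 of 39 were lower (7.95% of genes), namely Oas1a (24 and 10 UMIs), Iigp1, Ifi47 and Cxcl10, and Ifit1 was higher (7.78%). In the other ECs 5 of 38 were lower (9.32%) and 3 higher (8.94%), Cxcl10 among the higher at 2.58. Over all ECs Cxcl10 rested on few cells, as given above. The number of cells also differed between libraries, with 7080 and 5329 sinusoidal, 450 and 1352 arterial and 1063 and 1575 metaphyseal ECs, and the pooled endothelial value weights the subsets by them.

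Within the Dach1OE library, ECs with a Dach1 UMI after thinning to 1000 UMIs (1597 cells) were compared with those without one (7552 cells), leaving out 278 shallower ECs. Of 39 members, 2 were lower in the Dach1-positive cells, against 8.56% of genes, and none was higher, against 3.98%. The lower ones were Ifi47, at 95.2 in negative and 52.8 in positive cells, and Rsad2, at 37.7 and 21.0. Iigp1 was at 131 and 90.3, a log2 ratio of -0.54 (-0.68 to -0.40). In sinusoidal ECs alone Ifi47 was the 1 member lower of 38 (9.24% of genes), by the same ratio of -0.85, and none was higher (4.15%). In metaphyseal ECs 10 of 37 were lower, against 13.0% of genes, with Rsad2 at 69.2 and 8.80 (-2.97, -4.30 to -1.92) and Iigp1 at 45.9 and 11.3 (-2.02, -3.17 to -1.07), the positive values from 7 and 9 UMIs, over 235 positive and 1306 negative cells. The 3 higher ones there (7.09% of genes) were Cxcl9, at 5.92 and 35.2, Usp18, at 9.73 and 21.4, and Gbp2, at 34.3 and 55.3. In arterial ECs 1 of 35 was lower (8.94% of genes), which was Iigp1 at 31.1 and 5.11, the latter from 5 UMIs, and Ifit3 and Cxcl9 (13 and 12 UMIs) were higher (6.28%). The negative cells were not free of the transcript, since 1960 of the 7552 held a Dach1 UMI before thinning.

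**Figure D3:**
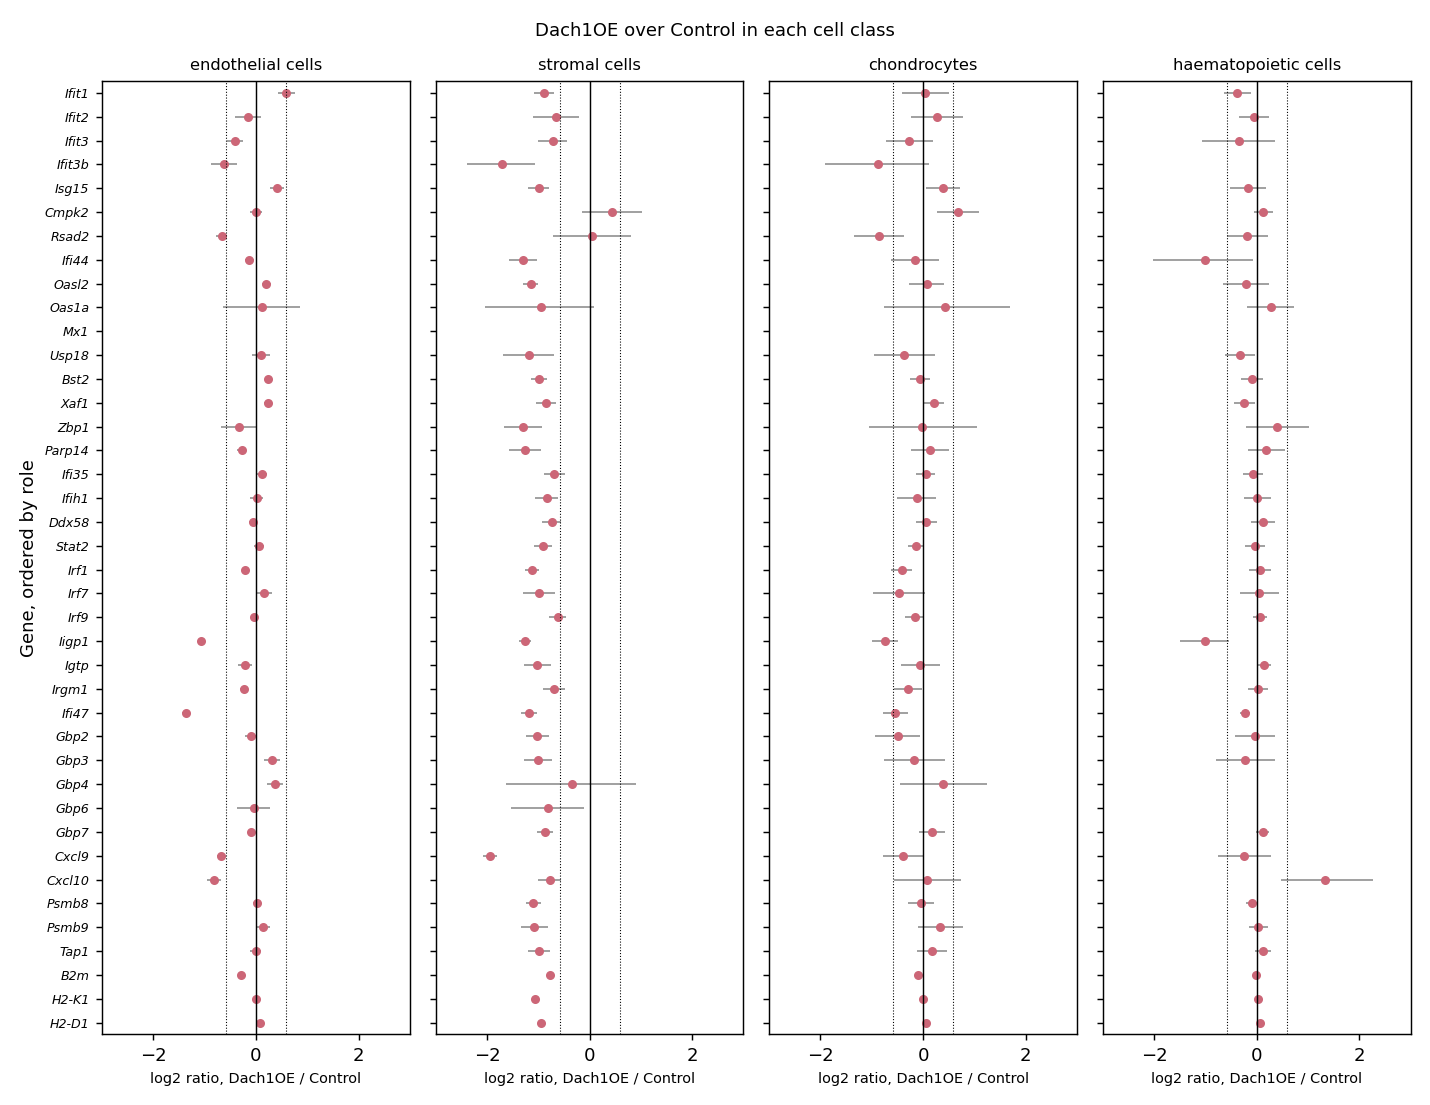
Log2 ratio of Dach1OE over Control (horizontal axes) for each member (rows, ordered by role) in ECs, stromal cells, chondrocytes and haematopoietic cells, with lines for the 95% interval of counting error and dotted lines at 1.5-fold. Most members lie left of the dotted line in stromal cells, while in ECs Ifi47 and Iigp1 lie furthest left.

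Pooled stromal cells had lower levels of nearly the whole module in Dach1OE. Of 39 members 36 were lower, against 15.8% of all 16006 genes, and none was higher, against 2.86%. The median of the members was -0.98 and that of all genes -0.22. In cells of both sexes 27 of 34 were lower, against 7.54% of genes. The exceptions were Cmpk2, a mitochondrial nucleotide kinase, at 1.81 and 2.45 CPM (46 and 62 UMIs), Rsad2 at 1.22 and 1.26, and Gbp4 at 0.55 and 0.43.

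All 6 roles had members among the lower ones. Cxcl9 was at 79.0 in Control and 20.6 in Dach1OE (-1.94, -2.08 to -1.80), and Iigp1 at 81.9 and 34.2 (-1.26, -1.38 to -1.15). Among the antiviral effectors Ifit3b was at -1.70, Ifi44 and Zbp1, a sensor of Z-form nucleic acid, each at -1.29, Parp14 at -1.25, Usp18, which removes ISG15 from proteins, at -1.18 and Oasl2 at -1.15. Irf1 went from 56.3 to 25.9 (-1.12), Irf7 from 10.03 to 5.09 and Stat2 from 30.0 to 16.1. H2-K1 went from 930 to 447 (-1.06), B2m from 2352 to 1373 (-0.78), where reads of H2-K1 and H2-D1 may be shared between these similar genes, and Psmb8, Psmb9 and Tap1 lay at -1.09, -1.08 and -0.99.

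This pooled difference went with the make-up of the stromal class. Marrow and metaphyseal stroma, where the members are high, made 3144 of the Control and 1468 of the Dach1OE stromal cells, and osteoblast-lineage cells 2171 and 2781, and the summed markers of the former were at 16521 and 8575 CPM in stromal cells. The summed leukocyte markers were at 89.4 and 71.7, with all 10 of them seen. Within marrow and metaphyseal stroma 3 of 38 members were lower, against 5.74% of genes, and 1 was higher, against 5.38%, with a member median of -0.30 and a median of all genes of -0.02. Within osteoblast-lineage cells 5 of 34 were lower, against 8.06% of genes, and none higher, against 2.84%, with medians of -0.26 and -0.06. With both subsets given equal weight, 3 members were lower in the stromal class in place of 36.

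Fewer members were lower within the subsets than in the pooled class, though some of these lay further from 0 there. In marrow and metaphyseal stroma Cxcl9 was at 190 and 101 (-0.91, -1.05 to -0.76), Ifit3b at 8.57 and 4.82 and Irf1 at 109 and 70.1 (-0.64, -0.81 to -0.46), and these were the 3 lower ones. H2-K1 was at 1940 and 1370 (-0.50), B2m at 4367 and 3247 (-0.43) and Iigp1 at 193 and 156 (-0.30). Cmpk2 was the higher one, at 2.86 and 7.23 (1.34, 0.59 to 2.10). Marrow and metaphyseal stroma was itself a pool of diaphyseal and metaphyseal cells. The authors reported the diaphyseal ones as reduced in Dach1OE and the metaphyseal ones as little changed. The part of this make-up in the ratios of the subset was not tested. In osteoblast-lineage cells the lower ones were Cxcl9, at 4.997 and 0.655 (-2.93, -3.91 to -2.07), Cxcl10 (-1.20), Usp18 (-1.30), Gbp3 and Iigp1, at 5.48 and 3.58. The chemokine UMIs of stromal cells sat in few cells, since the top 10 held 30.4% and 67.3% of Cxcl9 and 76.0% and 91.1% of Cxcl10.

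**Figure D4:**
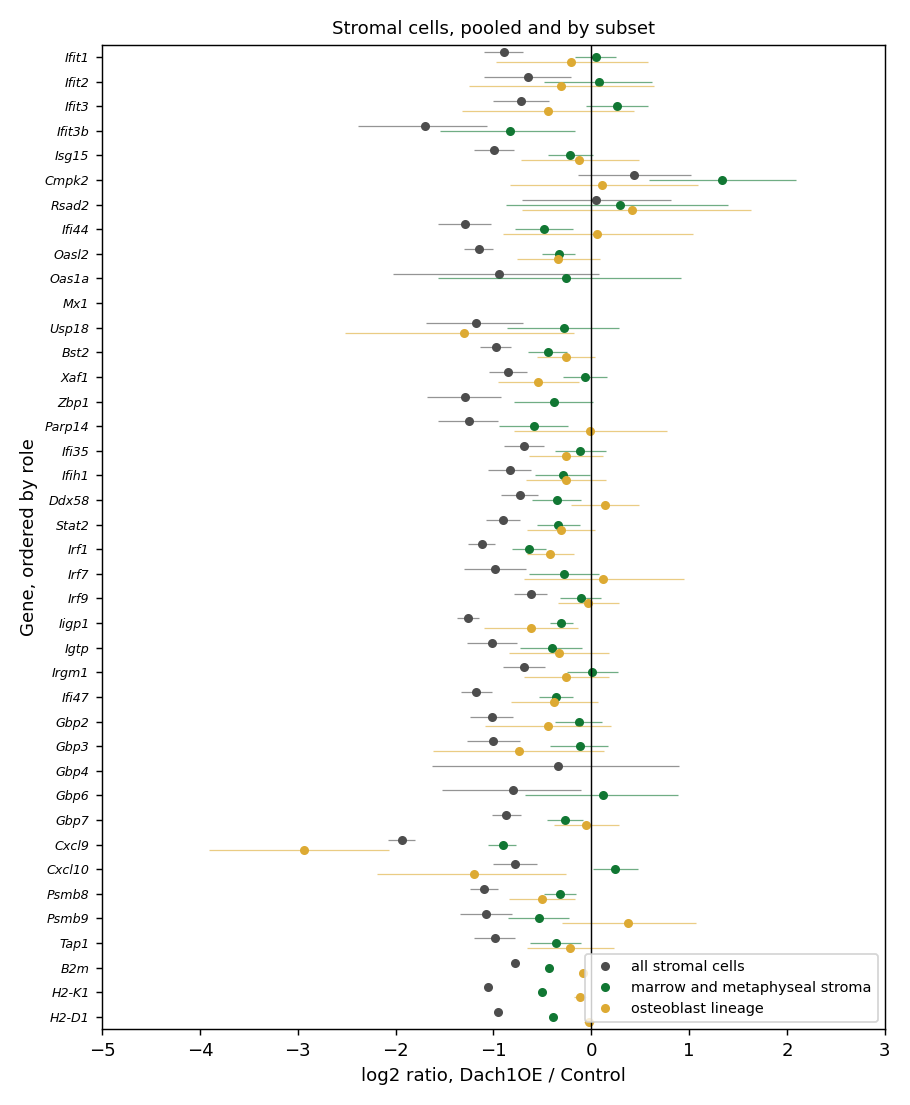
Log2 ratio of Dach1OE over Control (horizontal axis) of each member (rows) in all stromal cells and in osteoblast-lineage cells and marrow and metaphyseal stroma on their own. Most pooled points lie further left than the points of the subsets.

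Chondrocytes and haematopoietic cells differed little between the libraries. In chondrocytes 3 of 38 members were lower, against 8.17% of 17684 genes, and 1 was higher, against 2.97%. Ifit3b was at -0.89, Rsad2 at 1.86 and 1.03 CPM and Iigp1 at 6.35 and 3.80 (-0.74, -0.997 to -0.49), and the higher one was Cmpk2, at 1.69 and 2.69. In haematopoietic cells 2 of 36 were lower, against 5.97% of 14884 genes, namely Iigp1, at 6.03 and 2.997 (-1.01, -1.50 to -0.53), and Ifi44, from 29 and 15 UMIs. Cxcl10 was the higher one (3.63% of genes), from 16 and 42 UMIs. Iigp1 was the 1 member counted as lower in each of the 4 classes, and the part of free RNA of ECs in its low levels outside ECs and stroma was not tested.

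Mural cells numbered 1067 in Control and 2007 in Dach1OE. Of 33 members with enough UMIs none was lower in Dach1OE, against 5.60% of 11936 genes, and 4 were higher, against 6.22%. These were Ifit1 from 12 and 42 UMIs, Ifit2 from 11 and 34, Cmpk2 from 4 and 26, and Irf9 at 26.4 and 40.1 CPM (log2 ratio 0.60, 0.21 to 1.01). Iigp1 was at 28.2 and 29.2 and Ifi47 at 24.6 and 25.9 in these cells, log2 ratios of 0.05 (-0.36 to 0.47) and 0.07 (-0.37 to 0.52).

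The rest of the pathway was described by 5 lists of 89 genes, 79 of them in the tables. Interferon genes themselves were hardly seen, with 5 and 3 UMIs in ECs, 9 and 7 in stromal cells, 1 and 12 in chondrocytes and 3 and 1 in haematopoietic cells over 6 genes. In ECs 8 of 67 genes were lower and 4 higher, beside the 9.63% and 8.69% of all genes given above, in chondrocytes 5 and 4 of 67 (8.17% and 2.97% of all genes) and in haematopoietic cells 1 and 1 of 65 (5.97% and 3.63%). In pooled stromal cells 40 of 65 were lower and 1 higher, against 15.8% and 2.86% of all genes in the class whose make-up differed as given above. Among the receptors in ECs, Ifnar1 was at 31.1 CPM in Control and 34.1 in Dach1OE, and Ifngr1 was at 164 and 161.

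The pathway genes lower in ECs were led by Irf8, Gm4951 and Ifi203. Irf8, best known as a factor of myeloid cells, was at 128 and 46.4 (-1.46, -1.55 to -1.38), and in sinusoidal ECs at 156 and 71.3. The part of leukocyte RNA in these values was not tested. Gm4951, a relative of Iigp1, was at 42.4 and 18.2, Ifi203, a DNA-binding HIN-200 gene, at 213 and 99.0 and its relative Ifi204 at -0.91. The kinase gene Jak1 was at 771 and 467 (-0.72), and by subset at 902 and 616 in sinusoidal ECs but at 322 and 305 in metaphyseal ECs. Phf11d, Slfn5 and Tmem173 (STING) were the others, at -0.70, -0.67 and -0.66. The 4 higher genes were Lgals3bp, at 49.4 and 122, Cd274 (PD-L1), Ifnlr1 (8 and 12 UMIs) and Ccl5 (35 and 152 UMIs). In stromal cells Samhd1, which depletes nucleotides, was at 277 and 110, and Irf8 at 8.54 and 2.72.

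ECs that held several antiviral transcripts at once were then counted. Each cell was thinned to 1000 UMIs, and a cell with UMIs of at least 3 of the 19 antiviral effectors and RNA sensors was called interferon-high. This made 458 of 9133 ECs in Control (5.01%, 4.59 to 5.48, Wilson interval) and 525 of 9149 in Dach1OE (5.74%, 5.28 to 6.23), a difference of 0.72 percentage points (0.07 to 1.38, Newcombe interval). In Xist cells the difference was -0.006 points and in Y-linked cells 0.30, so the difference was not seen within either sex beyond its counting error. The name stands for this count alone and not for a cell type, since most called cells lay at the threshold, where 332 and 361 ECs held exactly 3 of the genes and 1084 and 1069 exactly 2, while 30 and 30 held 6 or more. The 19 genes summed to 0.816 and 0.840 UMIs per thinned EC, and if every EC held them at that mean level, sampling alone would put 3.82% and 3.99% of the cells at 3 genes or more. The part of sampling in the called ECs was not tested.

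The shares differed between cell groups, as did the mean level of the genes. Sinusoidal ECs were at 4.67% and 5.92%, arterial ECs at 7.32% and 6.90% and metaphyseal ECs at 5.77% and 4.15%, where equal levels in all cells of the group would give 3.47% and 4.36%, 5.42% and 4.46%, and 4.72% and 2.42%. Marrow and metaphyseal stroma was at 3.76% and 3.57%, where equal levels would give 1.79% and 1.18%, and all stromal cells at 2.20% and 1.33% (-0.87 points, -1.39 to -0.34). Of osteoblast-lineage cells 0 of 2169 were interferon-high in Control, which allows a share of up to 0.138% by 3 counts of the total and up to 0.177% by the Wilson interval, and 5 of 2780 in Dach1OE. Chondrocytes held 1 and 9 such cells and haematopoietic cells 9 and 3.

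**Figure D5:**
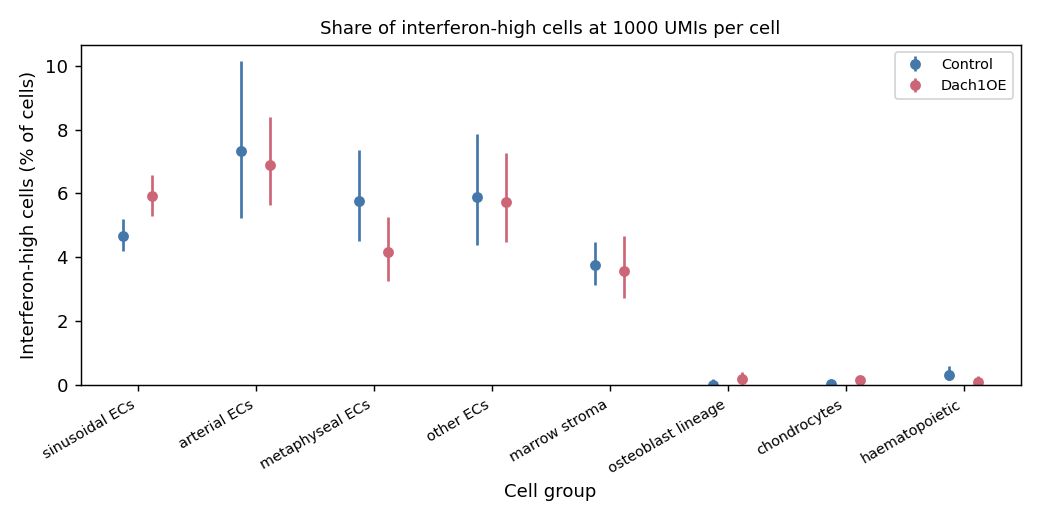
Percentage of interferon-high cells (vertical axis, cells thinned to 1000 UMIs) in each cell group (horizontal axis) of Control and Dach1OE, with Wilson 95% intervals. ECs and marrow and metaphyseal stroma lie between 3 and 8%, and osteoblast-lineage cells, chondrocytes and haematopoietic cells below 1%.

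Of the 21 members that had not been used to call them, 15 were at least 1.5-fold higher in interferon-high than in other ECs of both libraries, against 1.75% of all 14013 genes not used, and none was lower, against 4.98%. The other 6 were Irf1, Ifi47, Psmb9, B2m, H2-K1 and H2-D1, and B2m was at 4241 CPM in interferon-high and 3564 in other ECs of Control and at 3693 and 2894 in Dach1OE. Psmb8 and Tap1 were the antigen-presentation genes among the 15, with Tap1 at 92.8 and 42.4 and at 109 and 41.1. Cxcl10 was at 228 CPM in interferon-high and 29.3 in other ECs of Control, and at 219 and 11.4 in Dach1OE. Cxcl9 was at 298 and 95.9 in Control and 332 and 51.8 in Dach1OE. The chemokine levels rested on few cells, since 10 of the interferon-high ECs held 61.9% and 85.8% of their Cxcl10 UMIs and 61.8% and 71.5% of their Cxcl9 UMIs, against 20.1% and 23.03% for Tap1. The factor Irf7 was at 56.7 and 16.1 and at 75.8 and 17.0, the GTPase Igtp at 88.3 and 26.9 and at 79.5 and 22.9. The receptor Ifnar1 was at 30.9 in both kinds of Control ECs and at 33.0 and 34.0 in Dach1OE. Iigp1 was at 546 in interferon-high and 247 in other ECs of Control, and at 328 and 113 in Dach1OE, so it was lower in Dach1OE in both kinds of cell. Ifi47 differed less between the kinds of cell, at 325 and 223 in Control and 152 and 84.7 in Dach1OE.

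Outside all lists, the 5 genes furthest up in interferon-high ECs of both libraries, of 7749 with enough UMIs, were Ifi206, Ifi213, Ifi208, Gbp2b and Rnf213. Ifi206 was at 38.0 and 7.75 CPM in Control and 29.4 and 3.22 in Dach1OE, and Rnf213 at 164 and 70.7 and at 190 and 88.6. Ifi206, Ifi213 and Ifi208 are relatives of Ifi203 and Gbp2b of Gbp2, so reads of near-identical copies may be shared. Median UMIs per cell were 2871.5 in interferon-high and 2917 in other ECs of Control and 2615 and 2911 in Dach1OE, and the median number of leukocyte markers was 0 in each.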

How the data were processed

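Cells of 2 libraries, 1 Control and 1 Dach1OE, were captured on BD Rhapsody after depletion of lineage-, CD45- and CD117-positive cells. The authors deposited counts, RSEC-adjusted UMIs per cell and gene, which per the file headers came from version 1.11 of the BD Rhapsody WTA pipeline (the methods give another). Reads were set against GRCm38 with the GENCODE vM19 annotation, introns included, and the strand setting is not given in the sources used here. The tables name no sample other than these libraries, and 0 columns of per-sample values were set aside.

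The filters of the methods were used (500 to 6000 genes per cell, mitochondrial share below 25%), and no doublet caller was run. A cell took the class with the most of its 10 markers seen, with at least 3 and 2 more than any other class. Endothelial subsets needed 2 markers and a lead of 1, and stromal and haematopoietic subsets took the list with more markers seen. UMIs were summed by class, divided by the class total (CPM, scaled to 1000000) and compared as a ratio with an exact binomial interval of counting error. Interferon-high cells were counted after thinning to 1000 UMIs (seed 1), beside the share that binomial sampling gives at the mean level of each gene in the group. Cells with Xist or Y-linked UMIs alone stood for the sexes, which compares 1 mouse with 1 if each pool held a female and a male. The script was tested on simulated counts. Positions came from GENCODE vM21 on GRCm38, another release of the annotation. Members and lists were chosen with earlier results of these data known. Named genes were all members, pathway genes by role, and the 5 genes outside the lists furthest up in interferon-high ECs. The pathway counts include 1 gene whose own values are not reported here. Alternatives were 17 other settings of UMI column, gates, filters, cells by sex, weights, thinning and thresholds. Python 3.11.15, numpy 2.4.6, scipy 1.17.1, pandas 2.3.3 and matplotlib 3.10.9 were used.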

Additional observations from a re-analysis of the deposited data

Results flagged for a closer look

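The following members lay above 0 in one cell class and below 0 in another, with counting intervals that did not include 0 on either side and the same sign in cells with Xist and with Y-linked UMIs; with 1 library a group the difference between classes was not tested, and the pooled stromal ratio moved with the make-up of the stromal class. Against stromal cells, the log2 ratio of Dach1OE over Control was higher in ECs by 1.48 for Ifit1 (0.59 and -0.89), by 1.41 for Isg15 (0.41 and -0.99), by 1.32 for Gbp3, by 1.22 for Psmb9, by 1.21 for Bst2 and by 1.08 for Xaf1. Of the 4 endothelial subsets, Isg15, Gbp3 and Xaf1 were below 0 in 2, Ifit1 in 1 and Psmb9 and Bst2 in 0. Xaf1 was below 0 in 6 of 8 endothelial subsets by sex. Within the 2 stromal subsets Ifit1 lay at -0.21 to 0.05 and Psmb9 at -0.53 to 0.38. Isg15, Gbp3, Bst2 and Xaf1 were below 0 in both stromal subsets. It was higher in chondrocytes than in stromal cells by 1.38 for Isg15, 1.06 for Xaf1 and 1.01 for H2-D1. Haematopoietic cells stood above stromal cells by 1.16 for Igtp and 1.02 for H2-D1, and above ECs by 0.36 for Igtp. Xaf1 was above haematopoietic cells by 0.47 in ECs and by 0.45 in chondrocytes.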

How the results depend on the processing

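The count of lower members in ECs went from 6 to 2 at a 2-fold threshold, and that in stromal cells from 36 to 16 at 2-fold and to 3 with equal weight of the subsets. In chondrocytes it went from 3 to 6 with at least 2 markers and a lead of 1, to 5 with at least 1 UMI in each library and to 0 at 2-fold. In haematopoietic cells it went from 2 to 1 in Y-linked cells and at 50 UMIs, and to 4 with at least 1 UMI in each library. The log2 ratio of summed antiviral effectors in ECs was 0.05, and 0.0137 without interferon-high cells, 0.14 in Y-linked cells, -0.0829 in Xist cells and -0.126 with equal weight of the subsets, so its sign depended on the setting. In haematopoietic cells it turned from -0.10 to 0.022 in Y-linked cells, and in chondrocytes it went from 0.06 to 0.19 as a mean over cells and 0.25 in Y-linked cells. In stromal cells it was -0.97, and -1.13 and -0.83 with the stricter and looser marker gates, -1.08 under 10% mitochondrial UMIs, -0.75 centred on all genes, -0.81 as a mean over cells, -1.09 without interferon-high cells, -1.06 in Xist cells and -0.22 with equal weight. The difference in interferon-high share in ECs went from 0.72 to -0.00593 points in Xist cells. In stromal cells it went from -0.87 to -1.61 under 10% mitochondrial UMIs, -1.80 in Xist cells, -0.0298 in Y-linked cells, -4.62 at 2 genes, -0.15 at 4 genes and -3.30 at 2000 UMIs. With raw UMIs all 12 values kept their direction, the counts within 1.5 times and the others within counting error. The causes were not tested. Rare members such as Mx1 had too few UMIs to be compared, and the reason was not tested.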
